A study of Mus musculus with 16 samples.

Results

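The genes followed here encode the enzymes that turn arachidonic acid and related fatty acids into prostaglandins, leukotrienes and other oxidised lipids in healing skin wounds. Every array probe whose accession maps through RefSeq to Ptgs1, Ptgs2, Ptges, Ptgds, Alox5, Ltc4s, Alox12, Alox15, Alox12b or Aloxe3 was taken, whatever its signal. That gave 13 probes for 10 genes, out of 39429 probes and 20832 named genes on the array. Of these, 12 probes were well above background on all 16 arrays, and the probe of Alox15 was so on 4.

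Cyclooxygenases, encoded by Ptgs1 and Ptgs2, oxygenate arachidonic acid to prostaglandin H2, which terminal synthases such as those of Ptges and Ptgds turn into prostaglandin E2 and prostaglandin D2. On the other branch, the 5-lipoxygenase of Alox5 starts the leukotrienes, and Ltc4s couples leukotriene A4 to glutathione. Alox12 and Alox15 encode lipoxygenases of platelets, macrophages and epithelia, whereas Alox12b and Aloxe3 act in the upper epidermis on the ceramides that seal the skin barrier, and loss of either gives ichthyosis.

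RNA came from full-thickness punch wounds, 4 mm across, on the backs of female mice, harvested with the skin around them. WT mice were C57BL/6J of 10 to 12 weeks, and db/db mice were C57BLKS/J of 10 weeks homozygous for a leptin receptor mutation, so that the mutation, the diabetes and the background strain cannot be told apart in any comparison with WT. The db/db + estrogen group had estradiol benzoate in sesame oil on the wound daily (0.75 μg/g/day), the db/db + vehicle group had the oil alone, and the db/db group had neither. Each group had 2 arrays labelled day 7 and 2 labelled day 14, described by the submitters as biological replicates, and 4 of those 8 sets are compared on each day. Each mouse had 2 wounds, and whether the 2 arrays of a set came from different mice is not stated. No allele or transgene besides the leptin receptor mutation is described, and the wound is a mixed tissue, in which fewer cells of a type and less RNA per cell cannot be told apart.

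Signals were read in 1 colour and are given as log2 of the signal over the 75th percentile of its own array, so that 0 is the level of the 75th percentile. Levels are comparable across arrays for 1 probe and not between probes. Between 70.1% and 79.0% of probes were well above background, the 75th percentile ran from 1091 to 2549, the lowest being WT replicate 2 of labelled day 14, and 0 spots were saturated. Labelled day 7 filled a pair of slides with 1 replicate of every group on each, whereas on labelled day 14 both db/db arrays lay on one slide and both WT arrays on another. The labelled days were scanned on different days. The day stated on the labels was kept, but it is not certain: of 72 fold changes checked that the publication lists for single genes by day, 0 were recovered within 1% from arrays of the same label and 72 from arrays of the other. Differences were fitted with limma, with a standard error pooled over the 8 groups of 2 arrays, and a difference was called at an unadjusted p below 0.05 and a fold change above 2. Benjamini-Hochberg adjusted p-values over all probes tested stand beside, and p-values measure only the spread between these arrays. An exact permutation test of 2 arrays against 2 cannot go below 0.333.

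Ptgs2 moved furthest of the prostaglandin genes. It was higher in db/db than in WT wounds on both labelled days, and with estrogen it lay below every other group on labelled day 7. Ptgds ran the other way on that day, with a low level in db/db wounds and a higher one with estrogen. Alox5 was higher in all db/db groups than in WT on labelled day 7, with little difference between estrogen and vehicle, whereas Alox12b and Aloxe3 were lower in untreated db/db wounds than in WT. Ptgs1 and Ptges were called in no comparison.

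Between db/db and WT on labelled day 7, Ptgs2 and Alox5 were called higher and Ptgds, Alox12b and Aloxe3 lower among the 9 genes tested, which is 2 and 3 genes, against 5.68% and 8.4% of all probes tested. Of these 5 calls, Alox5, Ptgds and Alox12b passed the adjusted threshold, which 13.2% of all probes passed. At the later labelled day, 1 gene was called higher (Ptgs2, against 2.35% of all probes) and 1 lower (Aloxe3, against 15.6%), and 0 passed the adjusted threshold of limma, which 19.5% of probes passed. Both had unadjusted p-values below 0.05. The share of all probes that was called therefore differed greatly between the directions on that day.

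In db/db + estrogen against untreated db/db wounds of labelled day 7, Ptgds and Aloxe3 were called higher and Ptgs2 lower, that is 2 and 1 of 9, against 5.2% and 4.71% of all probes. Ptgs2 alone passed after adjustment, as did 5.83% of all probes. For the wounds of labelled day 14, 0 genes were called higher (2.56% of all probes) and 1 lower (Ptgs2, against 1.35%). After limma's adjustment 0 genes and 0.0991% of probes passed, with 2 genes, Ptgs2 and Ltc4s, at an unadjusted p below 0.05.

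Some of these genes also differed between wounds that had the oil alone and untreated ones, at the unadjusted threshold only. In db/db + vehicle against db/db on labelled day 7, Alox12, Alox12b and Aloxe3 were called higher, 3 of 9 against 2.51% of all probes, and 0 were called lower, against 2.31%. On labelled day 14, Alox5 and Alox12b were called higher, 2 of 9 against 5.31% of all probes, and 0 lower, against 2.2%. After limma's adjustment 0 of these genes passed on either day, as did 0.158% and 0.2% of all probes, with 4 and 2 genes at an unadjusted p below 0.05.

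Estrogen set against its vehicle holds the oil constant. At the earlier labelled day, Ptgds was called higher and Ptgs2 lower, 1 of 9 in each direction, against 4.67% and 4.32% of all probes, and Ptgs2 passed the adjusted threshold together with 3.07% of all probes. At the later labelled day, 0 genes were called in either direction, against 0.507% and 0.476% of all probes. By limma's adjusted p, 0 genes passed there and 0% of all probes did, and 0 genes had an unadjusted p below 0.05.

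Against WT, the adjusted threshold was passed on labelled day 7 by Alox5 and Ltc4s with estrogen, 2 of 9 against 4.56% of all probes, and by Alox5 and Ptgds with vehicle, 2 of 9 against 8.22%. In wounds of labelled day 14 it was passed by 0 of 9 with estrogen, against 11.8% of all probes, where 2 genes, Alox5 and Aloxe3, had an unadjusted limma p below 0.05. With vehicle, 1 of 9 passed on that day, Alox5, against 13.1%. These adjusted counts depended on single arrays. On labelled day 7 with estrogen, it was 0 without estrogen replicate 2 and 1 without any other array, and with vehicle it was 1 without either WT array or vehicle replicate 1. With vehicle on day 14, it was 0 without vehicle replicate 2 or WT replicate 2, and 2 without WT replicate 1. The WT arrays are shared by the comparisons of all 3 db/db groups with WT, and the db/db arrays by those of both treated groups with db/db.

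**Figure D1:**
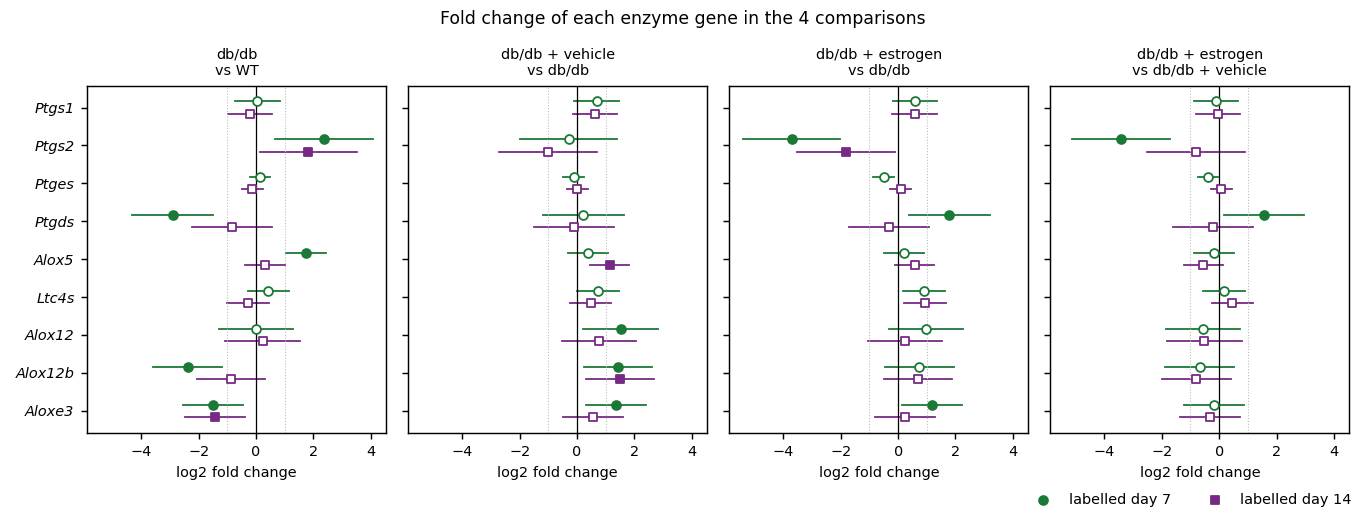
Log2 fold change (horizontal axis) of the 9 tested genes (rows) in the 4 comparisons named above the panels, as limma estimates with 95% confidence intervals; green circles are labelled day 7, purple squares labelled day 14, filled where called, and dotted lines mark a fold change of 2. Ptgs2 shows the lowest estimates with estrogen on labelled day 7 (−3.71 against db/db and −3.42 against vehicle), and the intervals of Ptges are the narrowest.

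Ptgs2 encodes the inducible cyclooxygenase. Its promoter and that of Ptgs1, the other cyclooxygenase gene, are printed because the former varied most among the prostaglandin genes and the latter was never called. Both are RefSeq sequences of mouse build GRCm38.p6, plus strand, from 250 bases before to 50 bases after the annotated start, at chr1:150099781-150100080 for Ptgs2 and chr2:36230176-36230475 for Ptgs1. Capitals mark matches to the motifs searched.
Ptgs2: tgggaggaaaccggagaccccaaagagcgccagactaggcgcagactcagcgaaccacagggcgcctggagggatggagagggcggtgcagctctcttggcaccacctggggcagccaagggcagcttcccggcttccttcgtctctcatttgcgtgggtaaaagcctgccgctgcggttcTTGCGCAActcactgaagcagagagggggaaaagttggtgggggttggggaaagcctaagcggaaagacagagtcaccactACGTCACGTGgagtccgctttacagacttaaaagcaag
Ptgs1: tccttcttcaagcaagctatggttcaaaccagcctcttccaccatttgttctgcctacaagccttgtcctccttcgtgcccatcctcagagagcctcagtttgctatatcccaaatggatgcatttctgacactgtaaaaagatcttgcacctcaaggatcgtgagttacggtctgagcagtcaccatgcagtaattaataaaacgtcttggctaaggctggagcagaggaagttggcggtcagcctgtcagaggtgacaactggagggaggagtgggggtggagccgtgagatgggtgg

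On both strands, 6 motifs were searched in the promoters of the 8 genes that the RefSeq table holds, with Alox15 and Aloxe3 missing from it. In Ptgs2, the C/EBP letters TTNCGCAA matched in 1 place, starting at position −69 from the annotated start, as did 0.798% of 32851 promoters of this length. The half-site of the cAMP response element, ACGTCA, matched from position 13 after the start (7.51% of all promoters), and the E-box CACGTG from position 17 (7.15%), so that the pair overlap by 2 bases. The TATA box TATAAA (13.6% of all promoters), the estrogen response element half-site AGGTCA (16.3%) and the full estrogen response element, AGGTCA and its reverse complement 3 bases apart (0.0548%), had no match in Ptgs2. None of the 6 motifs matched in the other 7 promoters. A match is a stretch of letters and not a site known to be bound, and the lack of one says only that these letters are not in this window.

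For the wounds of labelled day 7, the log2 level of Ptgs2 was −3.13 and −3.09 in WT, −0.93 and −0.55 in db/db, −0.78 and −1.29 in db/db + vehicle, and −4.85 and −4.06 in db/db + estrogen. The estrogen arrays were the lowest of all 16, WT came next, and the untreated and vehicle arrays overlapped with each other above both. The probe is printed in 10 spots, of which 8 to 10 were used on each array. Their median standard deviation was 0.040 on the log2 scale, which measures spots within an array and not the spread between arrays or wounds.

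Ptgs2 was higher in db/db than in WT by 2.37 on the log2 scale (SE 0.76, adjusted p = 0.068), which was 2.18 and no longer called without db/db replicate 2. It was lower with estrogen than in untreated db/db wounds, with a log2 fold change of −3.71 (SE 0.76, adjusted p = 0.021), and lower than with vehicle, at −3.42 (SE 0.76, adjusted p = 0.045). Within the 2 slides of that day, estrogen minus vehicle was −4.07 and −2.77. The difference from vehicle therefore had 1 direction on both slides.

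On labelled day 14, the log2 level of Ptgs2 was 0.37 and −2.20 in WT, 0.95 and 0.87 in db/db, −0.44 and 0.22 in db/db + vehicle, and −0.02 and −1.80 in db/db + estrogen. The db/db arrays were above all others, but the replicates of WT and of estrogen stood far apart. db/db exceeded WT by 1.82 (SE 0.76, adjusted p = 0.12), a value that was 0.53 and no longer called without WT replicate 2, the dimmest array, and 3.11 without WT replicate 1. It was 1.78 and 1.86 without either db/db array, again not called. With slide as a fixed block it was 1.26, with an unadjusted limma p of 0.31. Estrogen against db/db gave −1.82 (adjusted p = 0.52), which was −0.93 without estrogen replicate 2 and −1.78 and −1.86 without either db/db array, not called in any of these. In the same wounds, estrogen minus vehicle was 0.42 on one slide and −2.02 on the other.

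The estrogen effect on Ptgs2 against vehicle differed between the labelled days by 2.62 on the log2 scale (SE 1.08, unadjusted p = 0.036 and adjusted p = 0.41 by limma's interaction test). That difference between the days did not pass the adjusted threshold. Neutrophil markers moved in the same arrays. Their summed signal was 53.8 to 72.0 times the 75th percentile with estrogen on labelled day 7, against 480 to 509 with vehicle, 507 to 570 in db/db and 354 to 397 in WT. Of the 12 neutrophil genes measured, all tested, 11 were called lower with estrogen than in db/db, against 4.71% of all probes. Lower than with vehicle were 7, against 4.32% of all probes.

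A sum of signals is weighted to its brightest probes and is no measure of cell number. S100a8 and S100a9, calgranulin genes that wounded keratinocytes also express, are among the genes summed. They were at 0.92 and 2.69 and at 2.02 and 4.19 on the log2 scale in the estrogen arrays. The single markers differed more between db/db and WT than the sum did. On labelled day 7, 9 of 12 were called higher in db/db and 0 lower, against 5.68% and 8.4% of all probes. The median log2 fold change of the 12 was 4.56. Ngp, a granule protein gene of maturing neutrophils, was at 2.67 and 1.09 in db/db and was well above background on neither WT array. WT of labelled day 7, low in Ptgs2, was thus also low in most of these markers. On labelled day 14, where Ptgs2 was highest in db/db, the neutrophil sum was 287 to 342 in db/db and 372 to 506 in WT. Of the 12 markers, 5 were called higher and 1 lower in db/db on that day, against 2.35% and 15.6% of all probes. The part of neutrophils in the Ptgs2 values was not tested.

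Ptgs1, the constitutive cyclooxygenase, ran from 1.01 to 2.53 over the 16 arrays. Over the 4 plotted comparisons on both days, its log2 differences lay between −0.22 and 0.68. The last was vehicle against db/db on labelled day 7, with a 95% interval from −0.09 to 1.45. Estrogen against vehicle differed by −0.10 on labelled day 7 (95% interval −0.87 to 0.67), an interval that reaches nearly 2-fold.

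Ptges encodes the microsomal prostaglandin E synthase, which is often coupled to Ptgs2. By its brighter probe it had the smallest range of the 10 genes, from 3.89 to 4.44 over the 16 arrays. On labelled day 7 both estrogen arrays, at 3.94 and 3.89, were below the other 6, which ran from 4.12 to 4.44. The difference was −0.50 from db/db (SE 0.16, adjusted p = 0.11) and −0.38 from vehicle (adjusted p = 0.21), under 2-fold. A second and dimmer probe of Ptges ran more widely, from −1.95 to 0.04, and followed the first with r = 0.47 across the 16 arrays. It too was lowest with estrogen on that day, at −1.61 and −1.54, with differences over 2-fold, −1.23 from db/db (SE 0.59, adjusted p = 0.28) and −1.09 from vehicle (adjusted p = 0.32). Neither was called, and the probes therefore disagree on the size.

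**Figure D2:**
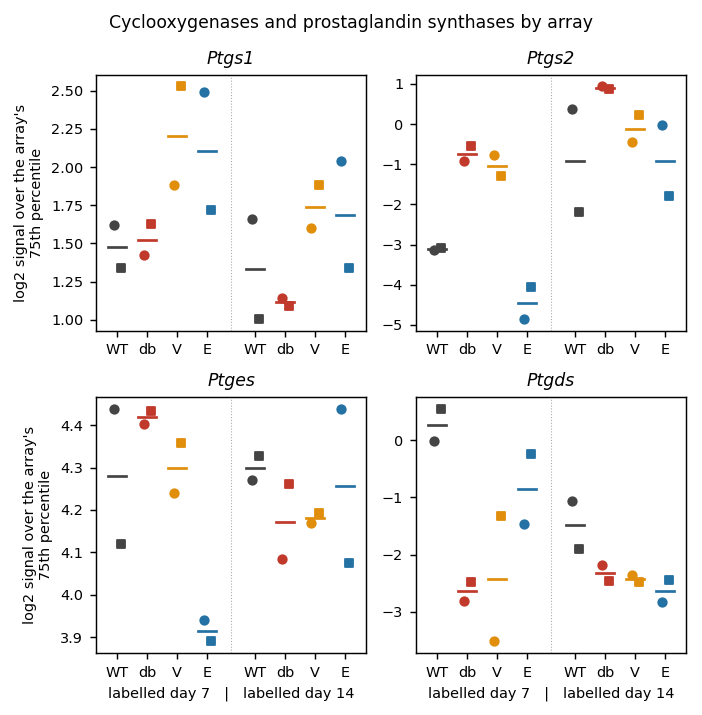
Log2 signal over the 75th percentile of the array (vertical axes, a separate scale in each panel) for Ptgs1, Ptgs2, Ptges and Ptgds in WT, db/db (db), db/db + vehicle (V) and db/db + estrogen (E) wounds of labelled days 7 and 14. Circles are replicate 1, squares replicate 2 and lines the mean of the 2 arrays; the estrogen arrays of labelled day 7 are the lowest for Ptgs2 (−4.85 and −4.06), and the WT arrays of that day the highest for Ptgds (−0.02 and 0.55).

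Ptgds encodes the lipocalin-type prostaglandin D synthase, which also carries retinoids and, in skin, is made in hair follicles and pigment cells. At the earlier labelled day, its log2 level was −0.02 and 0.55 in WT, −2.80 and −2.48 in db/db, −3.51 and −1.33 in db/db + vehicle, and −1.46 and −0.25 in db/db + estrogen. WT was above all others, estrogen was above untreated db/db, and the vehicle arrays were far apart, the upper one overlapping with estrogen.

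db/db was lower than WT, with a log2 fold change of −2.91 (SE 0.63, adjusted p = 0.017), and vehicle likewise at −2.69 (adjusted p = 0.031). Estrogen exceeded db/db by 1.78 (adjusted p = 0.14), which was 1.18 and not called without estrogen replicate 2 and 1.62 and not called without db/db replicate 1. It exceeded vehicle by 1.57 (adjusted p = 0.19), a value that was 0.48 and not called without vehicle replicate 1 and 0.96 and not called without estrogen replicate 2.

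At the later labelled day, Ptgds was at −1.05 and −1.90 in WT and between −2.83 and −2.18 in the 6 db/db arrays, so that WT was again above, by less. The difference between db/db and WT changed by 2.07 between the days (unadjusted p = 0.043, adjusted p = 0.34). Over all 16 arrays the genes most like Ptgds among 16920 compared were Pmel (r = 0.98) and Dct (r = 0.95), which are pigment genes, and then Lef1, Ccl27a and Mycn. These correlations describe 16 arrays that share group differences.

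Alox5 encodes 5-lipoxygenase, which is made chiefly by neutrophils, macrophages and mast cells. In wounds of labelled day 7, its log2 level was −1.77 and −2.00 in WT, 0.12 and −0.42 in db/db, 0.67 and −0.21 in db/db + vehicle, and −0.16 and 0.26 in db/db + estrogen. The 6 db/db arrays overlapped with each other and were all above WT. The differences from WT were 1.73 for db/db (SE 0.31, adjusted p = 0.0078), 1.94 for estrogen (adjusted p = 0.0075) and 2.11 for vehicle (adjusted p = 0.0046). Estrogen minus vehicle was −0.17, with a 95% interval from −0.86 to 0.51.

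For the wounds of labelled day 14, Alox5 was at −0.95 and −1.32 in WT, −0.91 and −0.74 in db/db, −0.31 and −0.19 with estrogen, and 0.09 and 0.52 with vehicle. The groups stood in that order with no overlap between neighbours. Vehicle exceeded WT by 1.44 (adjusted p = 0.016) and db/db by 1.13 (adjusted p = 0.13), the latter being 0.92, under 2-fold, without vehicle replicate 2. The difference between db/db and WT was smaller on labelled day 14 than on day 7 by 1.43 (unadjusted p = 0.0086, adjusted p = 0.17).

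The genes most like Alox5 over the 16 arrays were Cd163 (r = 0.91), a scavenger receptor of macrophages, and then Pacsin2, Slc28a2b, Stard8 and Vsig4, another macrophage receptor. The summed signal of 9 macrophage markers was 54.5 to 109 in the 4 WT arrays and 114 to 192 in the 12 db/db arrays. On labelled day 7, the estrogen arrays overlapped with the other db/db groups in Alox5, and their neutrophil sum was 53.8 to 72.0. Other cells that make the enzyme also differed in their markers. Between db/db and WT on labelled day 7, 7 of 9 macrophage, 4 of 7 tested mast cell and 9 of 12 neutrophil markers were called higher. That compares with 5.68% of all probes, and the medians were 1.43, 1.34 and 4.56. The mast cell sum was 30.2 to 44.2 in db/db and at most 18.1 in WT. The part of any of these cells in the Alox5 values was not tested.

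Ltc4s encodes leukotriene C4 synthase. On labelled day 7, its log2 level was 0.47 and 0.61 in WT, 0.68 and 1.27 in db/db, 1.95 and 1.46 with vehicle, and 1.70 and 2.04 with estrogen. WT was below all db/db arrays and the untreated arrays were below the treated ones. Estrogen exceeded WT by 1.33 (SE 0.33, adjusted p = 0.049) and vehicle exceeded it by 1.16 (adjusted p = 0.056). On labelled day 14, the WT arrays, at 1.13 and 2.00, overlapped with db/db at 1.49 and 1.06 and with vehicle at 1.56 and 1.94, and both estrogen arrays were higher at 2.34 and 2.07. Of 6 markers of eosinophils, which make much of this enzyme, 3 or 4 were well above background on each array, and Epx and Prg3 on 0 arrays. Their part in the Ltc4s values was not tested.

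Alox12 encodes the platelet type of 12-lipoxygenase, also present in epidermis. At the earlier labelled day, its log2 level was −3.29 and −2.48 in WT, −3.55 and −2.23 in db/db, −1.61 and −1.13 with vehicle, and −1.82 and −2.03 with estrogen. The treated groups were above the untreated ones, with vehicle at the top. Vehicle exceeded db/db by 1.52 (SE 0.58, adjusted p = 0.31), which was 0.86 and not called without db/db replicate 1 and 1.28 and not called without vehicle replicate 2. A second probe, with r = 0.64 to the first, gave 1.65 for the same difference and −2.14 for db/db against WT (adjusted p = 0.076), where the first gave −0.01, so that the 2 probes disagree on that comparison. Over the arrays of labelled day 14, the first probe ran from −3.79 to −1.64, with the groups overlapping except vehicle, which was above db/db.

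Platelet markers of labelled day 7 summed to 8.34 to 9.79 in WT and 17.4 to 37.8 in db/db. They summed to 37.1 to 42.1 with vehicle and 15.2 to 21.1 with estrogen. On day 14, the sums were 11.7 to 18.3 in WT, 38.0 to 40.2 in db/db, 58.2 to 69.7 with vehicle and 37.7 to 60.9 with estrogen. The part of platelets in the Alox12 values was not tested.

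Alox15 encodes 12/15-lipoxygenase, an enzyme of resident macrophages and eosinophils. Its log2 level was −9.83 to −8.84 in the 4 WT arrays, none of which was well above background. It was well above background on replicate 1 of db/db at −6.00, estrogen at −4.93 and vehicle at −3.70 on labelled day 7, and on vehicle replicate 1 at −7.09 on day 14. Since no group had both arrays above background it was not tested, and vehicle replicate 2 of labelled day 7 was at −9.30, far from replicate 1. All 3 arrays of labelled day 7 with a signal lay on 1 slide.

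**Figure D3:**
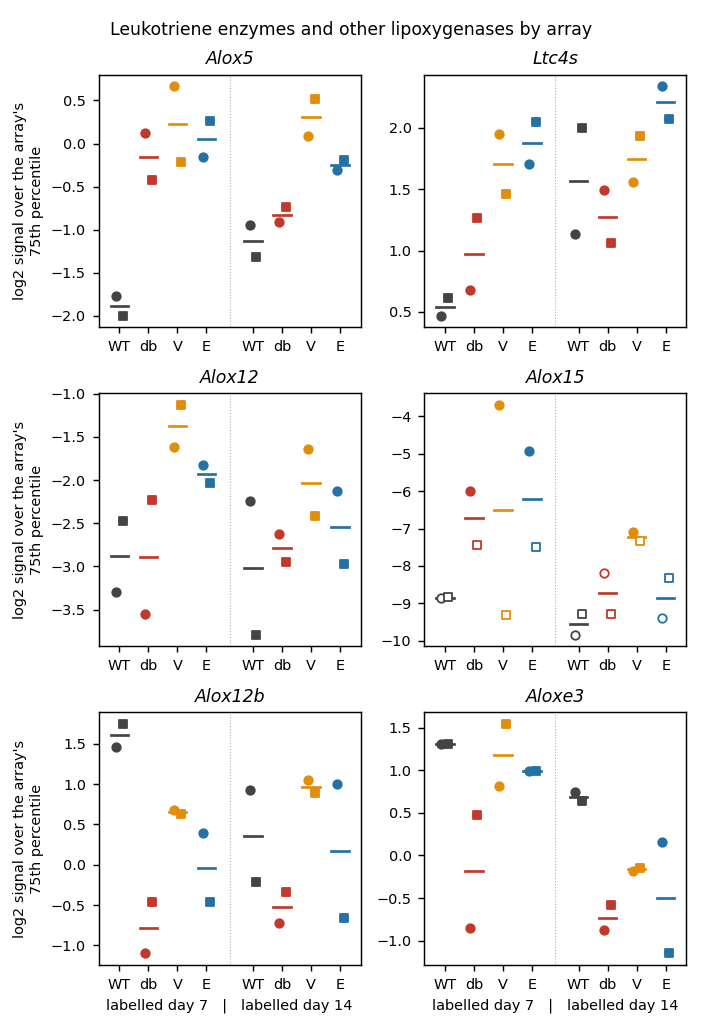
Log2 signal over the 75th percentile of the array (vertical axes, a separate scale in each panel) for Alox5, Ltc4s, Alox12, Alox15, Alox12b and Aloxe3 in WT, db/db (db), db/db + vehicle (V) and db/db + estrogen (E) wounds of labelled days 7 and 14. Circles are replicate 1, squares replicate 2, lines the mean of the 2 arrays and open symbols arrays on which the probe was not well above background, as on 12 of 16 for Alox15; for Alox5 both WT arrays of labelled day 7 lie below all others.

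Alox12b encodes 12R-lipoxygenase, and Aloxe3 the hydroperoxide isomerase that acts on its product. In wounds of labelled day 7, the log2 level of Alox12b was 1.47 and 1.75 in WT, −1.10 and −0.46 in db/db, 0.68 and 0.63 with vehicle, and 0.39 and −0.46 with estrogen. WT was highest, vehicle came next, and the lower estrogen array was at the level of the upper db/db array. That of Aloxe3 was 1.31 and 1.31 in WT, −0.85 and 0.48 in db/db, 0.82 and 1.54 with vehicle, and 0.99 and 0.99 with estrogen, so that the untreated db/db arrays were below the other 6.

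db/db was below WT, at −2.39 for Alox12b (SE 0.53, adjusted p = 0.019) and −1.50 for Aloxe3 (SE 0.47, adjusted p = 0.062). The second probe of Alox12b, with r = 0.89 to the first, gave −0.80 (adjusted p = 0.17), under 2-fold, and the value for Aloxe3 was −0.83 and not called without db/db replicate 1. Vehicle exceeded db/db by 1.43 for Alox12b (adjusted p = 0.29) and by 1.37 for Aloxe3 (adjusted p = 0.25). The second probe of Alox12b gave 0.51 (adjusted p = 0.56), which was not called. The former values were 1.11 and 0.70 and not called without db/db replicate 1, and 1.45 and 1.00 and not called without vehicle replicate 2, and Alox12b was 1.40 and not called without vehicle replicate 1.

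Estrogen exceeded db/db for Aloxe3 by 1.18 (adjusted p = 0.19), which was 0.51 without db/db replicate 1, and was called in 1 of the 4 fits that left out an array. Estrogen minus vehicle was −0.68 for Alox12b, with a 95% interval from −1.88 to 0.51.

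At the later labelled day, Alox12b was at 0.92 and −0.21 in WT, −0.72 and −0.33 in db/db, 1.05 and 0.88 with vehicle, and 1.00 and −0.66 with estrogen. The db/db arrays were below those of WT and vehicle, whereas the estrogen replicates spanned nearly the whole range. Vehicle exceeded db/db by 1.49 (adjusted p = 0.20), which was 1.30 without db/db replicate 1 and 1.41 without vehicle replicate 1, not called in either case. The second probe gave 0.55 (adjusted p = 0.44), again not called.

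Aloxe3 on labelled day 14 was at 0.75 and 0.64 in WT, −0.88 and −0.58 in db/db, −0.18 and −0.15 with vehicle, and 0.16 and −1.15 with estrogen. WT was above every db/db array. db/db differed from WT by −1.42 (SE 0.47, adjusted p = 0.059), which was −1.28 without db/db replicate 1 and −1.37 without WT replicate 1, not called in either case.

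The genes most like Alox12b over the 16 arrays were Zfp750 (r = 0.94), a regulator of epidermal differentiation, and then Tfap2c, Grb7, Tgm5 and Grhl1. Those most like Aloxe3 were Arhgap40 (r = 0.98), Carmil1, Lipm, Fcho1 and Sema4g. The summed signal of 7 granular keratinocyte markers was 124 to 272 in db/db and 344 to 387 in WT on labelled day 7. With vehicle it was 246 to 472 and with estrogen 238 to 361 on that day. It was 60.2 and 358 in the WT arrays of day 14 and 71.5 and 322 in the estrogen arrays of that day. In db/db of day 14 it was 218 to 248, within the span of WT, and with vehicle 242 to 286. The part of keratinocyte content in the Alox12b and Aloxe3 values was not tested.

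Of 11 genes that act with Alox12b and Aloxe3 on the lipid envelope of the epidermis, all measured and tested, 0 were called higher and 2 lower in db/db than in WT on labelled day 7: Elovl4, which lengthens fatty acids (−1.48, adjusted p = 0.052), and Nipal4 (−1.13, adjusted p = 0.16). Of all probes tested, 5.68% were called higher and 8.4% lower there. The median log2 fold change of the list was −1.07, against −0.05 for all probes. With vehicle against db/db on labelled day 14, 5 were called higher and 0 lower, namely Nipal4 (1.77), Elovl4 (1.73), Sdr9c7 (1.66), Tgm1 (1.56) and Cyp4f39 (1.41), against 5.31% and 2.2% of all probes, and the median was 1.32 against 0.06. None of the 5 passed adjustment. With estrogen against vehicle on labelled day 7, Tgm1 (−1.93), Sdr9c7 (−1.71) and Cers3 (−1.68) were called lower and 0 higher, against 4.32% and 4.67% of all probes, again with none passing adjustment, and the median was −0.94 against 0.01. Between db/db and WT on labelled day 14, 0 of the 11 were called higher and 1 lower, against 2.35% and 15.6% of all probes. On that day 1 passed the adjusted threshold, as did 19.5% of all probes, and the median was −0.73 against −0.12. Vehicle against db/db on labelled day 7 had 1 called higher and 0 lower, against 2.51% and 2.31%. Estrogen against db/db had 0 called on either day, against 5.2% and 4.71% on day 7 and 2.56% and 1.35% on day 14.

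The other 59 measured genes of the pathway were taken from a list of phospholipases, synthases, receptors and inactivating enzymes. They were not refitted with slide as a block. On labelled day 14 no slide held both untreated db/db and WT arrays, so that slide may enter that difference. Between db/db and WT, 57 were tested on each day. Of these, 11 were called higher and 7 lower on labelled day 7, against 5.68% and 8.4% of all probes, and 8 higher and 13 lower on day 14, against 2.35% and 15.6%, with list medians of 0.09 and −0.14 against −0.05 and −0.12 for all probes tested. Between estrogen and vehicle, 8 were called higher and 8 lower of 58 on labelled day 7, against 4.67% and 4.32% of all probes. On day 14, 0 were called higher and 1 lower of 56, Ptgfr (−1.55, adjusted p = 0.30), against 0.507% and 0.476%, with medians on the days of −0.05 and −0.10 against 0.01 and −0.00. Between vehicle and db/db, 1 was called higher and 5 lower of 56 on day 7, against 2.51% and 2.31%, and 6 higher and 2 lower of 56 on day 14, against 5.31% and 2.2%, with medians of 0.16 and 0.35 against 0.04 and 0.06. Between estrogen and db/db, 9 were called higher and 10 lower of 58 on day 7, against 5.2% and 4.71%, and 6 higher and 2 lower of 55 on day 14, against 2.56% and 1.35%, with medians of 0.12 and 0.15 against 0.04 and 0.05.

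Among partners of Alox5, Alox5ap, which presents arachidonic acid to 5-lipoxygenase, was at 2.59 and 2.44 in WT and 4.20 and 3.89 in db/db on labelled day 7. The groups did not overlap, and the difference was 1.53 (SE 0.17, adjusted p = 0.00078). With estrogen it was at 3.16 and 3.32, which was −0.76 from vehicle (adjusted p = 0.044) and under 2-fold. Dpep2, a dipeptidase that turns leukotriene D4 into E4, was higher by 1.85 (adjusted p = 0.0022). The epidermal lipoxygenase gene Alox12e went the other way, from 5.04 and 5.15 in WT to −1.92 and −0.45 in db/db, a difference of −6.28 (adjusted p = 0.0037) on labelled day 7 and of −4.15 on day 14 (adjusted p = 0.015). On labelled day 7 its 2 estrogen arrays, at 1.74 and 1.16, lay above both vehicle arrays, at −1.98 and 0.36, and below WT. Alox8, another lipoxygenase gene of the list, was called lower with estrogen than with vehicle on that day, at −4.75. Its difference between db/db and WT, −0.58, was not called.

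Among phospholipases A2, which release the fatty acids, 15 of 16 measured were tested between db/db and WT on each day. Called were 1 higher and 4 lower on labelled day 7, against 5.68% and 8.4% of all probes, and 2 higher and 8 lower on day 14, against 2.35% and 15.6%. Pla2g7, which encodes the plasma form of platelet-activating factor acetylhydrolase, was the one higher on both days, by 2.00 (adjusted p = 0.0029) and 1.27 (adjusted p = 0.014). Pla2g4d was lower by −3.55 (adjusted p = 0.035) and Pla2g4f by −1.79 (adjusted p = 0.030) on labelled day 7. On day 14, with db/db and WT on different slides, Pla2g4f (−2.01), Pla2g3 (−1.95), Pla2g4e (−1.92) and Pla2g2d (−1.68) passed adjustment. So did Pla2g4c (adjusted p = 0.034), whose signal neither db/db array held well above background and which was at least 1.70-fold lower. Pla2g4e was lower with estrogen than with vehicle on labelled day 7, at −3.32 (adjusted p = 0.012).

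Among synthases, Tbxas1, the thromboxane synthase, was higher in db/db by 1.04 (adjusted p = 0.043) and 1.39 (adjusted p = 0.011) on the 2 labelled days. Ptgis, the prostacyclin synthase, was lower with estrogen than with vehicle on day 7, at −1.77 (adjusted p = 0.049), with 0.48 and 0.19 in the estrogen arrays and 2.71 and 1.49 in the vehicle arrays. Akr1c18, an aldo-keto reductase, was called lower in db/db than in WT (−1.54, adjusted p = 0.093) and higher with estrogen than with vehicle (2.02, adjusted p = 0.075).

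Among prostanoid receptors, Ptger2, a receptor for prostaglandin E2, was higher in db/db by 1.73 (adjusted p = 0.011) on labelled day 7 and 1.22 (adjusted p = 0.031) on day 14. The prostacyclin receptor gene Ptgir was higher by 1.47 (adjusted p = 0.037) on day 7. Ptgdr, a receptor for prostaglandin D2, was lower by −3.66 (adjusted p = 0.017) and −2.86 (adjusted p = 0.033), the direction of Ptgds, with 1 of the 2 db/db arrays of each day not well above background. With estrogen against vehicle on day 7, Tbxa2r, the thromboxane receptor (1.40, adjusted p = 0.029), and Ptger1 (1.03, adjusted p = 0.025) were higher. Tbxa2r was lower in db/db than in WT on labelled day 14, at −1.05 (adjusted p = 0.026).

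Large changes were those of Fpr1 and Fpr2, formyl peptide receptors of phagocytes, of which the second also binds lipoxin A4. At the earlier labelled day, Fpr1 was at −0.96 and −3.87 in WT, 2.27 and 2.29 in db/db, 0.60 and −0.06 with vehicle, and −4.82 and −3.71 with estrogen. The db/db arrays were on top and the estrogen arrays overlapped with the lower WT array. db/db exceeded WT by 4.70 (adjusted p = 0.0078) for Fpr1 and 3.98 (adjusted p = 0.014) for Fpr2, and estrogen was below vehicle at −4.53 (adjusted p = 0.024) and −4.32 (adjusted p = 0.026). For the wounds of labelled day 14, Gpr31b, a receptor for a product of 12-lipoxygenase, was lower in db/db at −1.69 (adjusted p = 0.028).

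Among inactivating enzymes, Cyp4f18, which oxidises leukotriene B4, was at 0.91 and 1.22 in WT, 2.04 and 1.99 in db/db, 0.52 and 0.71 with vehicle, and −1.82 and −1.68 with estrogen on labelled day 7. The 4 groups did not overlap. The difference was −3.76 (SE 0.29, adjusted p = 0.00041) between estrogen and db/db and −2.37 (adjusted p = 0.0054) between estrogen and vehicle. On day 14, db/db exceeded WT by 1.22 (adjusted p = 0.019). Ggt5, which trims leukotriene C4, belongs in the list with the partners of the leukotriene enzymes and not with the inactivating ones. It was higher with estrogen than with vehicle on day 7, by 1.31 (adjusted p = 0.039). Fpr1, Fpr2 and Cyp4f18 are expressed in neutrophils, whose markers were lower in the same estrogen arrays, as given above. Cyp4f18 was lower with vehicle than in WT on labelled day 7. The neutrophil markers had a median log2 fold change of 1.11 for vehicle against WT on that day. The part of neutrophils in the Fpr1, Fpr2 and Cyp4f18 values was not tested.

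The comparisons of db/db with WT and of estrogen with vehicle share no array. In wounds of labelled day 7, 66 genes of the enzyme set and the pathway list together were tested in both, of which 23 were called in the first, 18 in the second and 8 in both. Of those 8, 7 had opposite signs. That was the rule on the whole array, where 1137 of 29243 probes tested in both were called in both and 988 of them, 86.9%, had opposite signs, so that nothing particular to these genes is seen in it. Ptgs2, Fpr1 and Fpr2 were higher in db/db and lower with estrogen, and Ptgds, Alox12e, Akr1c18 and Pla2g4c were lower in db/db and higher with estrogen. Both vehicle arrays of Pla2g4c were too dim to be measured, and estrogen was at least 2.74-fold higher. Pla2g4d was lower in both. On labelled day 14, 21 were called in the first and 1 in the second, with 0 in both, whereas 88 of 28605 probes were called in both on that day.

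**Figure D4:**
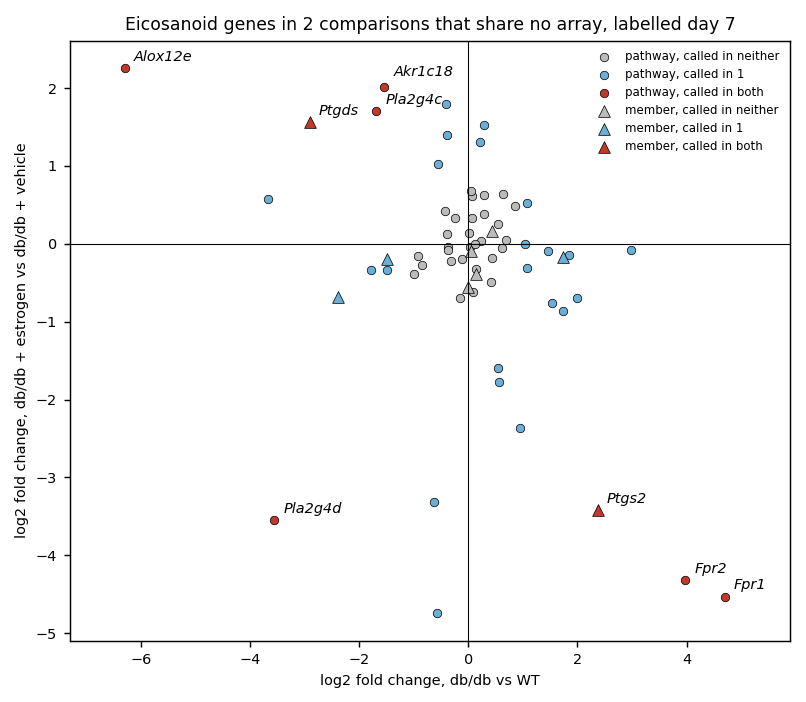
Log2 fold change of db/db over WT (horizontal axis) and of db/db + estrogen over its vehicle (vertical axis) on labelled day 7 for the 66 genes tested in both; triangles are the enzyme genes described, labelled member in the key, and circles the pathway list, in red where called in both comparisons, blue in 1 and grey in neither. Of the 8 named genes called in both, 7 lie in the upper left or lower right, and Pla2g4d at the lower left.

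Between the labelled days, 0 of the 9 genes had an effect that differed at limma's adjusted threshold in any of the 4 comparisons. That threshold was passed by 0.68% of all probes for db/db against WT, 0.0953% for estrogen against db/db, 0% for vehicle against db/db and 0.00979% for estrogen against vehicle. At an unadjusted p below 0.05 there were 2 genes (Ptgds and Alox5), 2 (Ptges and Ptgds), 0 and 1 (Ptgs2). Labelled day and scan day cannot be told apart.

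The closest pattern to Ptgs2 over the 16 arrays was that of Il6 (r = 0.94), an inflammatory cytokine, followed by the chemokine genes Ccl7 (r = 0.94) and Cxcl3 (r = 0.93) and by Prkcsh and Ier3. For Ptgs1 it was Krt84 (r = 0.89), a hair keratin, and then Mesp2, Cadm1, 2310033P09Rik and Rpl19. Ptges was followed by Gpr132 (r = 0.90), Ccdc88b, Erp27, Mefv and Mirt1. Those most like Ltc4s were Adam15 (r = 0.83), Camkk2, Ldha, Naaa and S100a6. Alox12 was followed by Guk1 (r = 0.90), Xrra1, Ly6g6e, Gna15 and Fam241b, and none are given for Alox15, which was mostly near background. Arrays of a group are not independent of its mean, and no test was made.

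**Figure D5:**
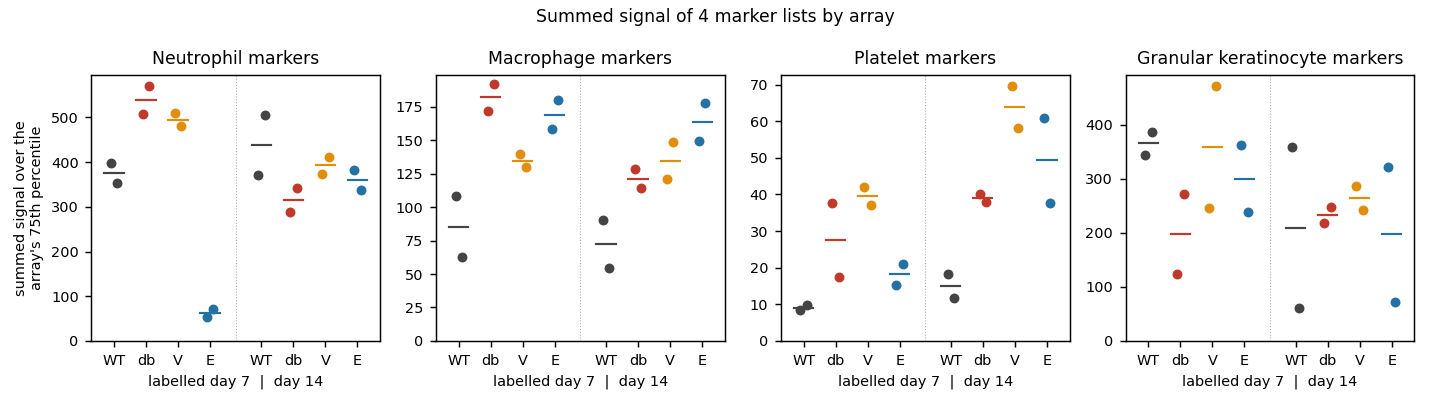
Summed signal of the measured genes of each marker list, in multiples of the array's 75th percentile (vertical axes, linear, from 0), for WT, db/db (db), db/db + vehicle (V) and db/db + estrogen (E) wounds of labelled days 7 and 14; points are arrays and lines the mean of the 2. The neutrophil sum is 53.8 to 72.0 in the estrogen arrays of labelled day 7 and at least 287 in all others, while the macrophage sum is at most 109 in WT and at least 114 in the db/db groups.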

How the data were processed

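Wound RNA was profiled on 16 Agilent mouse arrays. The intensity of each spot was deposited as the authors made it with Agilent Feature Extraction 11.0.1.1, background-subtracted and not scaled between arrays. The marks for outlier, saturated and well-above-background spots are those deposited, and the deposited series matrix holds a ratio per probe, equal to signal over the 75th percentile within 0.1% for at least 99.4% of its probes. Outlier spots were dropped, spots of a probe averaged, and each array's 75th percentile subtracted on the log2 scale. Probes were named through RefSeq, which matched 27427, 69.6%. The brightest probe stood for a gene. Tested were probes that both arrays of either group compared marked well above background. limma 3.58.1 (R 4.3.3) fitted 8 group means over all 16 arrays, leaving 8 residual degrees of freedom, and was tested on simulated data. Of list genes, Ptgr3, Ly6g, Cd68, Flg and Trac had no named probe.

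The members and lists were chosen with earlier results of these data known. Every member is named. Pathway genes are named by a rule, those called in db/db against WT or estrogen against vehicle with adjusted p below 0.05, and up to 5 per role beyond. The genes most alike are the 5 with the highest Pearson r among genes well above background on at least 8 arrays. Alternatives were quantile and normexp (offset 50) processing, series matrix values, other filters and floors, slide or replicate number as a block, fits of 4 arrays, second probes, adjusted thresholds, and leaving out each array; comparisons with WT of the treated groups were given theirs after seeing the data. For the pathway list, only quantile normalization and leaving out each array were run. Promoters are from RefSeq, build GRCm38.p6. Of the listed fold changes, 3 were left out of the check of the day labels.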

Additional observations from a re-analysis of the deposited data

How the results depend on the processing

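No called difference of an enzyme gene changed direction. Over leave-one-out fits, 45 of these values stayed called and 27 did not, and over the other settings 176 did and 26 did not. Called under every setting were Ptgs2 for estrogen against db/db and against vehicle, and Ptgds and Alox5 for db/db against WT, all on labelled day 7. The number of called enzyme genes moved as follows, and the cause was not tested. With the Benjamini-Hochberg threshold in place of p and fold, it was 3 for db/db against WT (5 otherwise), 1 for estrogen against db/db (3), 0 for vehicle against db/db (3) and 1 for estrogen against vehicle (2) on labelled day 7, and 0 in each of the first 3 on day 14 (2, 1 and 2). With only the 4 arrays compared, it was 1 for estrogen against vehicle on day 7, and 1 for db/db against WT and 0 for estrogen against db/db on day 14. With slide as a random block, it was 1 for estrogen against vehicle on day 7. With slide as a fixed block, it was 0 for estrogen against db/db and 1 for vehicle against db/db on day 14. Quantile normalization gave 0 for estrogen against db/db and the second probes gave 1 for vehicle against db/db on day 14.

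Leaving out 1 array at a time, the count on labelled day 7 ran from 4 to 5 for db/db against WT, 1 to 5 for estrogen against db/db, 0 to 4 for vehicle against db/db and 1 to 3 for estrogen against vehicle. On day 14, it ran from 0 to 2, 0 to 2, 1 to 2 and 0 to 1. Adjusted counts against WT ran from 0 to 1 (2 with all arrays) for estrogen and 1 to 3 (2) for vehicle on day 7, and from 0 to 0 (0) and 0 to 2 (1) on day 14. The count of pathway genes in the same 4 comparisons ran from 14 to 17, 14 to 18, 3 to 10 and 14 to 16 on day 7, and from 13 to 23, 5 to 9, 6 to 7 and 1 to 7 on day 14. Differences between the days stayed at 0 throughout.

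With the replicate block, the counts were 5, 3, 3 and 2 on day 7 and 2, 1, 2 and 0 on day 14, as without it, and no call changed. Correlations between deviations of same-numbered arrays ran from −0.454 to 0.388. From 2 arrays a group, they cannot show whether the number pairs the samples. On labelled day 7 the number is also the slide. The median of all probes for db/db against WT on day 14 was −0.12 with the 75th percentile, 0.07 with quantile normalization and −0.18 with normexp. With 2 arrays a group, the number of arrays limits the precision, and differences under 2-fold of the more variable genes cannot be resolved.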
